A study of Rattus norvegicus with 10 samples.

Results

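The circadian clock genes described here are Clock, Per1, Per2, Per3, Cry1, Cry2, Nr1d1, Nr1d2, Dbp and Bhlhe40. They were taken by gene symbol from the annotation of the array, where each of the 10 had 1 probeset, among 15037 named genes on 23188 tested probesets. RNA was measured in nucleus pulposus cells, the cells of the soft centre of the intervertebral disc, isolated from male Sprague Dawley rats of 3 to 4 months and 300 gram. In 5 samples (ShBNIP3, arrays 6 to 10) the cells had received a lentivirus carrying a short hairpin RNA against Bnip3, a mitophagy receptor of the outer mitochondrial membrane. In the other 5 (ShCtrl, arrays 1 to 5) they had received a control hairpin in the pLKO.1 vector, and all 10 were collected 4 days after transduction. Cells of both groups were therefore transduced, and only the hairpin differed per the labels. The number of hairpins against Bnip3, the time of day of collection and any step to synchronise the cells are not given in the sources used here. Nothing there says that the arrays of a group hold separate cultures or animals. The p-values therefore rest on a spread between arrays that could be technical.

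The mammalian clock is a feedback loop of transcription that runs in most cells. The proteins CLOCK and BMAL1 pair and activate genes through E-box elements, among them the Per and Cry genes, whose proteins return to the nucleus and repress CLOCK and BMAL1. The same E-box activation drives Nr1d1 and Nr1d2, which encode the REV-ERB repressors of Bmal1, and Dbp, which encodes an activator on D-box elements and passes the rhythm on to output genes. Cells of the intervertebral disc are known to hold such a clock.

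Sequences before the gene starts are shown for the clock genes Per2, Nr1d1, Nr1d2 and Bhlhe40, which carry a match to a clock-related motif. All have a negative difference with all arrays, and of them only Per2 and Nr1d2 were called lower. Cry2 also carries a match and has a negative difference, and is not shown. Sequences are shown as well for the genes of the loop that rose (Bmal1) and that had the most negative difference (Tef). They are the 250 bases before the annotated start in RefSeq, build GRCr8, read along the gene, with motif matches in capitals. Per2 (chr9:99496994-99497243, minus strand) holds a D-box form and an E-box variant. Nr1d1 (chr10:84229455-84229704, minus strand, the second of 2 annotated starts) and Bhlhe40 (chr4:143174200-143174449, plus strand) hold an E-box each, as does Tef (chr7:115206577-115206826, plus strand). Nr1d2 (chr15:9954784-9955033, plus strand) and Bmal1 (chr1:176766078-176766327, plus strand) hold a half-site of the kind that REV-ERB and ROR receptors bind.
Per2: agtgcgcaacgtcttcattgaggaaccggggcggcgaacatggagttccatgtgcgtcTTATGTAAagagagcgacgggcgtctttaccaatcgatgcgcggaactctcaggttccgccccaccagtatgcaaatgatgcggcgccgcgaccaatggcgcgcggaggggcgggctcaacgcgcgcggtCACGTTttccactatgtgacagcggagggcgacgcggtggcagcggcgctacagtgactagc
Nr1d1: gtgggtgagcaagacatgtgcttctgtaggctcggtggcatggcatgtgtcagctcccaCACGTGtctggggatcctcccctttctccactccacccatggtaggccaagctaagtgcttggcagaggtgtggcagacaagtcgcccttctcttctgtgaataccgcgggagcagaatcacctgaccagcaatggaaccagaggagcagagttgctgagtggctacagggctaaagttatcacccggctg
Nr1d2: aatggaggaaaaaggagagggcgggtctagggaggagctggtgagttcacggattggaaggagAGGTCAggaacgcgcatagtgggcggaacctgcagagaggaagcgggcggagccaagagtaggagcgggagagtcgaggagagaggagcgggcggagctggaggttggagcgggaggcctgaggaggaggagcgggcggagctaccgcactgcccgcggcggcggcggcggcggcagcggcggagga
Bhlhe40: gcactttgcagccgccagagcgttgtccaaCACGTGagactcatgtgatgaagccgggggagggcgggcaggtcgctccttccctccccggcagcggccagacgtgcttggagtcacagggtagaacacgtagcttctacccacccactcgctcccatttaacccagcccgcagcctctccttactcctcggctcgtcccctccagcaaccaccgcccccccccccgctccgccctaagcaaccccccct
Bmal1: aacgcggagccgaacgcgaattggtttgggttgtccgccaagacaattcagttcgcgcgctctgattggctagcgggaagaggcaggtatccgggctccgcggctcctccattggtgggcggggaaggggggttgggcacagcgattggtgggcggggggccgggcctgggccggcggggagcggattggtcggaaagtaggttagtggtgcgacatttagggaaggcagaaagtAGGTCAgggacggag
Tef: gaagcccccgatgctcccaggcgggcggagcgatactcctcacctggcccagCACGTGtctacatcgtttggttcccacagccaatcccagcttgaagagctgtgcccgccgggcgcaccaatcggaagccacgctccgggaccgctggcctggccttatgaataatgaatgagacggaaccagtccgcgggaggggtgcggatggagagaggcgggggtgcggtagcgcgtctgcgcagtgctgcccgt

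Both strands of each window were searched for the E-box CACGTG, its variant CACGTT, the half-site AGGTCA, the D-box forms TTACGTAA and TTATGTAA (read on the other strand as TTACATAA), the cAMP element TGACGTCA and the palindromic glucocorticoid element. The table held windows for 9 of the 10 clock genes, 11 windows in all. CACGTG stood before 2 of these genes (Nr1d1, Bhlhe40) and in 5.59% of all 33469 windows, and CACGTT before 3 (Per2, Cry2, Nr1d1) and in 4.07%. Either form was found for 4 genes and in 9.43% of all windows. A gene was counted where any of its windows held a match, while the shares are of single windows, so the units differ. AGGTCA was found for Nr1d2 and in 14.1% of all windows, and TTATGTAA for Per2 and in 0.828%. The other 3 motifs, found in 0.108%, 1.59% and 0.012% of all windows in the order named, matched in no window of the clock genes. The windows of Dbp, Per1, Per3 and Clock held no match, which says only that these letters are not in these windows. In the map of motif matches the matches of Per2 begin at positions -192 and -62 from the start, and that of Bmal1 at -15. A match is a description of the letters and not a measured binding site.

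**Figure D1:**
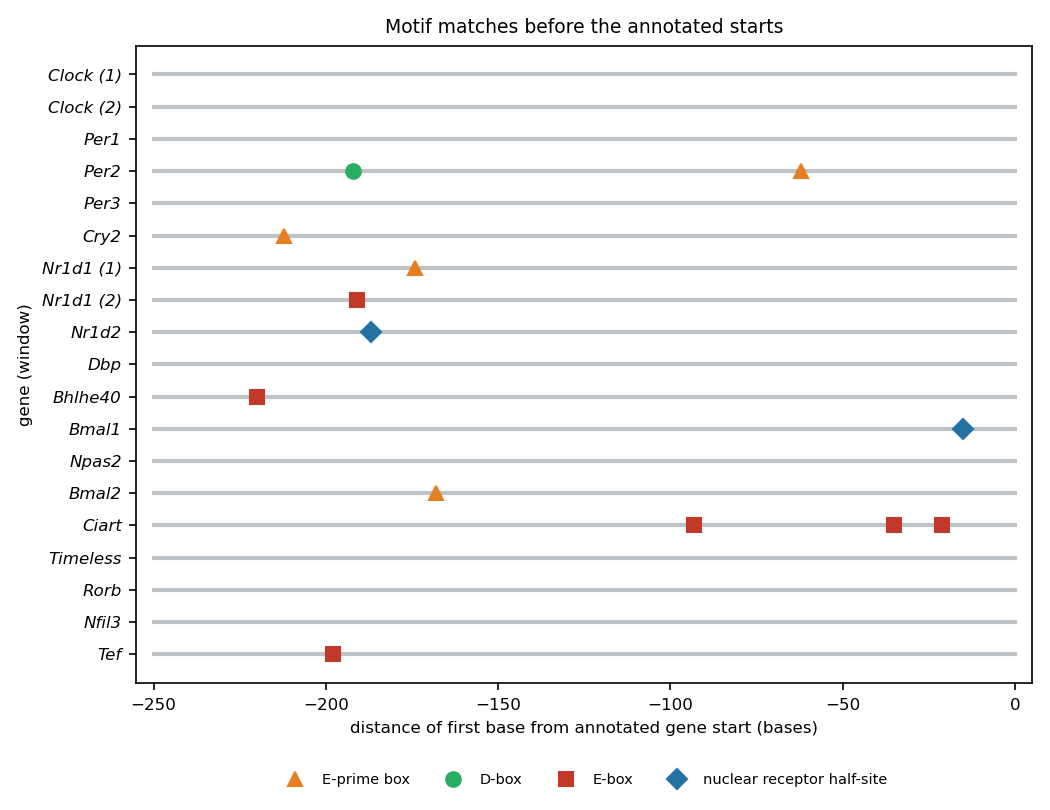
Motif matches in the 250 bases before annotated starts (RefSeq, GRCr8) of the clock genes and the other measured genes of the loop, each line a window, the x axis the distance of the first base of a match from the start in bases, numbers in brackets the window of a gene with 2 starts. Ciart has 3 E-boxes and Per2 2 matches of different kinds, while the windows of Clock, Per1, Per3 and Dbp hold none.

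Bnip3 itself was lower on every ShBNIP3 array, at 11.40 ± 0.77 in ShBNIP3 and 14.61 ± 0.79 in ShCtrl (log2 level, SD, n = 5 each), with p = 0.0079 by exact permutation (two-sided), the smallest that 5 against 5 arrays allow. Within ShBNIP3 it was highest on array 10, at 12.68 against 10.59 to 11.31 on the others. Within ShCtrl it was highest on array 4, at 15.97 against 13.94 to 14.54 on the others. Levels here are the authors' normalized log2 values. Differences are ShBNIP3 minus ShCtrl on that scale. They were tested with limma on the 23188 probesets together, and a gene was called where the p adjusted by Benjamini-Hochberg was under 0.05. Each probeset has its own brightness, so levels are compared between groups and not between genes. A probeset counted as at background on an array where it lay under the 95th percentile of 23 antigenomic probesets, which was 6.50 to 6.78. Mean Pearson correlations with the other arrays of the group were 0.992 for 8 of the arrays, 0.986 for ShBNIP3 array 10 and 0.983 for ShCtrl array 4. On these 2 arrays the early response gene Nr4a1 was at 15.29 (array 10) and 13.09 (array 4), against 7.51 to 8.85 on the other ShBNIP3 arrays and 7.65 to 8.06 on the other ShCtrl arrays, so results are also given without them. Of 18 markers of nucleus pulposus cells, 14 were measured and 8 were at background on all arrays (Tbxt, Krt8, Krt18, Krt19, Shh, Noto, Matn4, Col9a1), while Acan, Col2a1 and Car3 were above it. Of the 14, 2 fell, Col2a1 (difference -0.67, limma adjusted p = 0.013) and Car3 (-1.29, limma adjusted p = 0.0048), and 1 rose, Cdh2 (1.45, limma adjusted p = 0.00052), which was at background on all ShCtrl arrays. The summed levels of this list were 12.25 to 13.83 in ShBNIP3 and 13.42 to 14.55 in ShCtrl. Among markers of other cells, those of annulus fibrosus cells and fibroblasts had 4 of 9 lower in ShBNIP3 (Col1a1, Col1a2, Col3a1, Thy1) and 0 higher. Their summed levels were 19.65 to 19.91 in ShBNIP3 and 20.01 to 20.11 in ShCtrl. Those of macrophages and leukocytes had 3 of 14 higher (Cd68, Cd14, Cd53) and 0 lower. Of the 14, 11 were at background on all arrays, Ptprc, Csf1r and Cd53 included. Their summed levels were 12.02 to 13.28 in ShBNIP3 and 11.14 to 11.82 in ShCtrl. The brightest probesets weigh most in such sums. Here that was Cd14, at 11.73 to 13.14 in ShBNIP3 and 10.83 to 11.57 in ShCtrl, so this sum mostly follows a single gene. Over all probesets tested, 7.87% were called lower and 7.61% higher. All 8 measured endothelial and blood markers were at background on all arrays. The part of these markers in the results below was not tested, and in RNA from a whole culture fewer cells of a type and less RNA per cell cannot be told apart.

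Knockdown of Bnip3 was accompanied by lower RNA of Dbp, Per3, Nr1d2, Per2 and Clock, with log2 differences between -1.66 and -0.47. Of the 10 clock genes 5 were lower in ShBNIP3 and 0 higher (limma, 6 lower and 1 higher at an unadjusted p under 0.05). Over all probesets tested 7.87% were called lower, 7.61% higher and 15.5% in either direction. Among named genes 17.1% were called in either direction. On at least 1 array, 9 of the 10 clock genes and 8351 of the 15037 named genes were above background. The clock genes were chosen with earlier results of these data known, so these shares are no test of the set. The difference was negative for 9 of the 10 clock genes and for 6847 of the 15037 named genes, with a median of -0.55 for the clock genes and 0.03 for all named genes. A fall of at least 2-fold was called for 2 clock genes, Dbp and Per3, and for 2.74% of all probesets. The groups did not overlap for 2 clock genes, Dbp and Nr1d2, both lower in ShBNIP3, against 6.29% of all probesets in that direction, 6.60% in the other and 12.9% in either. Without ShBNIP3 array 10 and ShCtrl array 4 the counts were again 5 lower and 0 higher, while the probesets called in either direction numbered 4622 of 23188, against 3590 with all arrays.

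**Figure D2:**
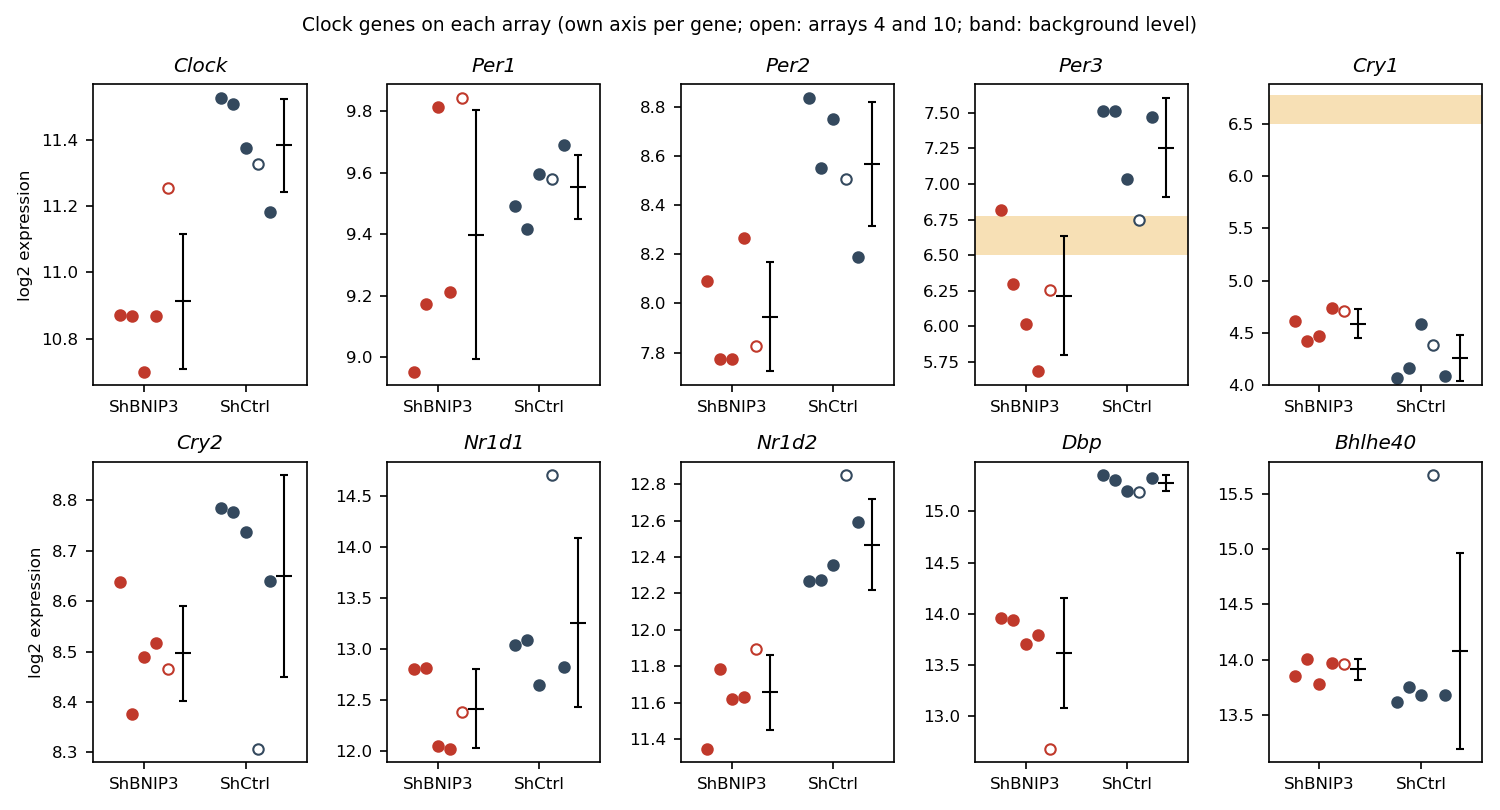
Log2 expression of the 10 clock genes on each array, a panel and a y axis of its own for each gene, with ShBNIP3 arrays 6 to 10 and ShCtrl arrays 1 to 5 in array order, open points for arrays 10 and 4, black bars for the mean ± SD (n = 5 each) and a shaded band for the range of the background level over arrays (6.50 to 6.78), where it falls in the panel. The groups are apart for Dbp and Nr1d2, ShCtrl array 4 stands above the rest for Nr1d1 and Bhlhe40, and Cry1 lies under the band.

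Dbp, the D-box activator and a direct readout of CLOCK and BMAL1 activity in many tissues, showed the largest change among the clock genes. Its level was 13.96, 13.94, 13.71, 13.79 and 12.68 on ShBNIP3 arrays 6 to 10, against 15.35, 15.31, 15.20, 15.19 and 15.33 on ShCtrl arrays 1 to 5. Every ShBNIP3 array lay below every ShCtrl array, and the 5 ShCtrl values were close together (SD 0.08) while array 10 lay furthest down. The log2 difference was -1.66 (SE 0.21, 95% interval -2.12 to -1.20, limma adjusted p = 0.000225), which left 31.7% of the ShCtrl level. Without array 10 it was -1.42. Only 1.20% of all probesets had a difference of at least this size in either direction.

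The Period genes encode the repressors that pair with cryptochromes, and they did not all pass the test. Per3 was at 6.82, 6.30, 6.02, 5.68 and 6.26 on the ShBNIP3 arrays, against 7.51, 7.51, 7.04, 6.75 and 7.47 on the ShCtrl arrays. It fell by 1.04 (SE 0.21, 95% interval -1.50 to -0.58, limma adjusted p = 0.0054), or 2.06-fold. The groups overlapped by 1 array each, array 6 and array 4, and 4 of the ShBNIP3 values were at background, where the fold can understate a change.

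Per2, the Period gene with both a D-box form and an E-box variant in its window above, had levels of 8.09, 7.77, 7.77, 8.27 and 7.82 on the ShBNIP3 arrays, against 8.84, 8.55, 8.75, 8.51 and 8.19 on the ShCtrl arrays. Its fall of 0.62 (SE 0.15, 95% interval -0.95 to -0.29, limma adjusted p = 0.014) left 65.0% of the ShCtrl level. Array 9 of ShBNIP3 lay above array 5 of ShCtrl, and the other values were apart.

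Per1, the Period gene that also responds at once to glucocorticoid and cAMP signals, did not pass. On the ShBNIP3 arrays it was at 8.95, 9.17, 9.81, 9.21 and 9.84, against 9.49, 9.42, 9.59, 9.58 and 9.69 on the ShCtrl arrays. ShBNIP3 arrays 8 and 10 were above all ShCtrl arrays and the other 3 below all of them, and the difference was -0.16 (95% interval -0.54 to 0.22, limma adjusted p = 0.65). Whether the Period genes changed unequally was tested within arrays, on pairs chosen after their values were seen. The change of Per3 was 0.88 more negative than that of Per1 (difference of the log2 differences -0.88, exact two-sided permutation p = 0.048, adjusted over 4 pairs 0.19), and that of Per2 differed from Per1 by -0.47 (exact permutation p = 0.18, adjusted 0.32). Per3 and Per2 differed by -0.42 (exact permutation p = 0.24, adjusted 0.32), so no pair of Period genes passed after adjustment.

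The cryptochromes, the other repressors of CLOCK and BMAL1, did not pass. Cry2 was at 8.38 to 8.64 (median 8.49) in ShBNIP3 and at 8.31 to 8.79 (median 8.74) in ShCtrl, with a difference of -0.15 (95% interval -0.42 to 0.11, limma adjusted p = 0.49). The lowest of its 10 values was that of ShCtrl array 4, so the groups overlap. Cry1 was at background on all 10 arrays, between 4.42 and 4.74 in ShBNIP3 and between 4.07 and 4.59 in ShCtrl, and no fold is given. Its difference, the only positive one among the clock genes, was 0.33 (limma adjusted p = 0.12).

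The REV-ERB genes encode nuclear receptors that hold Bmal1 down. Nr1d2 (REV-ERB beta) had levels of 11.35, 11.78, 11.62, 11.63 and 11.90 on the ShBNIP3 arrays, against 12.27, 12.27, 12.35, 12.85 and 12.59 on the ShCtrl arrays. The groups did not overlap, and the fall of 0.81 (SE 0.15, 95% interval -1.13 to -0.49, limma adjusted p = 0.0026) left 56.9% of the ShCtrl level. Nr1d1 (REV-ERB alpha) was at 12.81, 12.81, 12.05, 12.02 and 12.38 on the ShBNIP3 arrays, against 13.04, 13.09, 12.65, 14.70 and 12.82 on the ShCtrl arrays. ShCtrl array 4 stood far above the other values, ShCtrl array 3 lay below 2 of the ShBNIP3 arrays, and the difference of -0.84 (95% interval -1.57 to -0.11) did not pass (limma adjusted p = 0.12). Without ShCtrl array 4 it was -0.48 (limma adjusted p = 0.11), and without both arrays -0.47 (limma adjusted p = 0.13). Within arrays the changes of Nr1d2 and Nr1d1 differed by 0.03 (exact two-sided permutation p = 0.94, adjusted 0.94 over the 4 pairs named above), or by -0.30 without arrays 10 and 4.

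Clock, the DNA-binding partner of BMAL1, was at 10.87, 10.87, 10.70, 10.87 and 11.25 on the ShBNIP3 arrays, against 11.52, 11.51, 11.37, 11.33 and 11.18 on the ShCtrl arrays. Only array 10 of ShBNIP3 reached into the ShCtrl range. It fell by 0.47 (SE 0.13, 95% interval -0.75 to -0.19, limma adjusted p = 0.026) to 72.3% of the ShCtrl level, the smallest of the 5 called falls. This call was held in 3 of 10 fits that left out 1 array. It was lost without ShCtrl array 1, 2 or 3 or ShBNIP3 array 6, 7, 8 or 9, where the limma adjusted p was between 0.052 and 0.068 and the difference between -0.47 and -0.42.

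Bhlhe40 (DEC1), an E-box repressor that hypoxia also induces, had levels of 13.78 to 14.00 in ShBNIP3 (median 13.96). On ShCtrl arrays 1 to 5 it was at 13.62, 13.76, 13.68, 15.67 and 13.68. All ShBNIP3 values lay above the 4 ShCtrl values other than array 4, and the difference of -0.17 (95% interval -0.88 to 0.55, limma adjusted p = 0.82) turned to 0.23 without ShCtrl array 4 (limma adjusted p = 0.20) and to 0.22 without both arrays (limma adjusted p = 0.23). Its sign thus rested on a single array, and it passed in none of these fits.

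The rest of the loop was read from lists chosen with earlier results of these data known. Of 12 further genes 8 were measured, of which 1 rose and 2 fell, 37.5% against 17.1% of all named genes, with a median difference of -0.52. Without arrays 10 and 4, where 4622 of all 23188 probesets were called, 1 of the 8 rose and 4 fell. Bmal1, the partner of CLOCK, was higher on every ShBNIP3 array, at 8.20, 8.27, 8.41, 8.52 and 8.31, against 7.43, 7.76, 7.66, 8.01 and 7.92 on the ShCtrl arrays. It rose by 0.59 (SE 0.13, 95% interval 0.30 to 0.87, limma adjusted p = 0.0087) and passed in all 10 fits that left out 1 array. Bmal1 thus differed in the direction opposite to Clock, Nr1d2, Per2, Per3 and Dbp.

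Tef, which like Dbp encodes a D-box activator of the PAR bZIP family, was at 4.28, 5.26, 4.69, 4.48 and 4.55 on the ShBNIP3 arrays, against 7.16, 7.50, 7.19, 6.97 and 7.11 on the ShCtrl arrays. All ShBNIP3 values were at background and all ShCtrl values above it. The difference was -2.53 (SE 0.18, limma adjusted p = 2.1e-06), and against the background level Tef was at least 1.40-fold lower. Rorb, which encodes a receptor that activates through the same element as REV-ERB represses, was at background in both groups, with a difference of -0.86 (limma adjusted p = 0.0052), and no fold is given.

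Nfil3, the repressor on D-box elements, did not pass with all arrays (difference -1.13, 95% interval -2.44 to 0.17, limma adjusted p = 0.26). It was at 5.88, 5.50, 5.87, 6.33 and 8.53 on the ShBNIP3 arrays, against 6.43, 7.18, 7.16, 9.48 and 7.53 on the ShCtrl arrays, so that arrays 10 and 4 were the highest of their groups. Of these values, 4 of ShBNIP3 and 1 of ShCtrl were at background. Without ShBNIP3 array 10 the difference was -1.66 (limma adjusted p = 0.031) and without both arrays -1.18 (limma adjusted p = 0.0033). Bmal2, a paralog of Bmal1, likewise passed without array 10 (-0.70, limma adjusted p = 0.016) and without both (-0.62, limma adjusted p = 0.020), against -0.43 (limma adjusted p = 0.36) with all arrays. Npas2, a paralog of Clock, differed by -0.29 (95% interval -1.12 to 0.53, limma adjusted p = 0.71), with 11.15 on ShCtrl array 4 and 8.82 to 9.18 on the other ShCtrl arrays, and by 0.13 without that array. The E-box repressor Ciart differed by -0.62 (limma adjusted p = 0.16) and Timeless by 0.09 (limma adjusted p = 0.78). Ciart was at background on 5 ShBNIP3 and 3 ShCtrl arrays, and Timeless on 2 ShCtrl arrays.

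**Figure D3:**
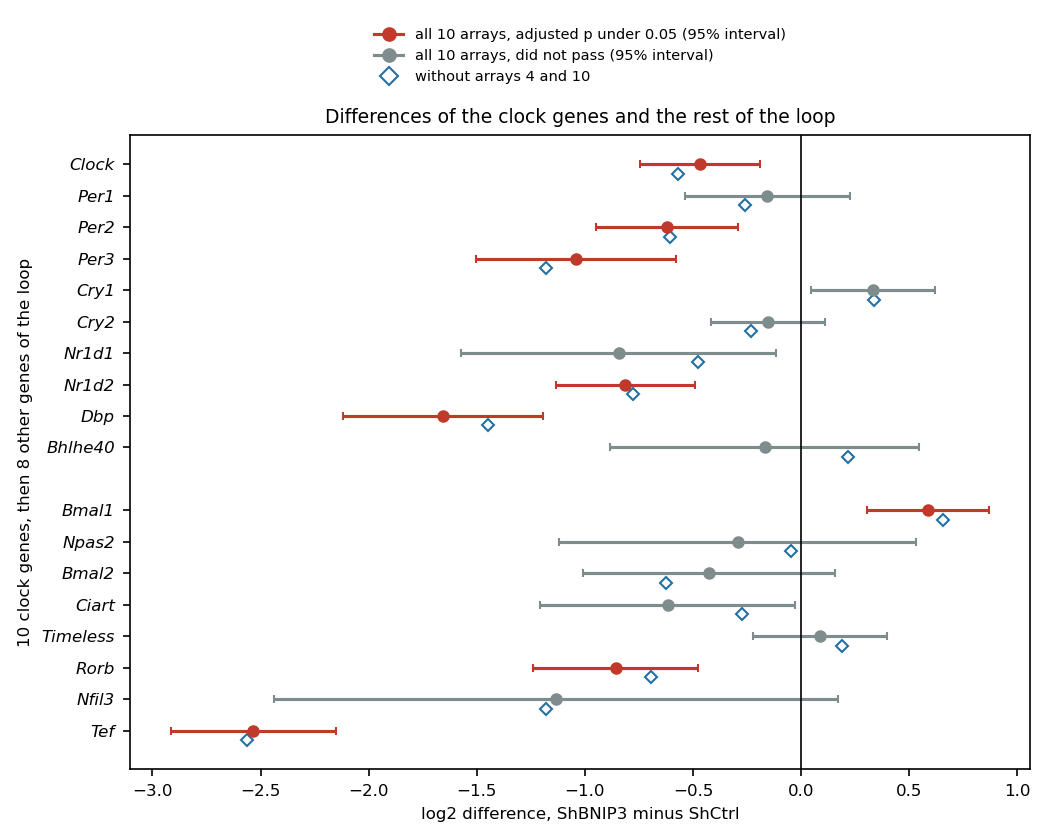
Log2 differences (x axis, ShBNIP3 minus ShCtrl) of the 10 clock genes and 8 other genes of the loop (y axis), as circles with 95% intervals from limma over all 10 arrays, red where the adjusted p was under 0.05, and as open diamonds without arrays 10 and 4. The called differences are negative except for Bmal1 at 0.59, and the diamond of Bhlhe40 lies across 0 from its circle.

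The arrays that stood apart carried the clock genes unevenly. On ShBNIP3 array 10, Dbp lay 1.17 below the mean of the other 4 ShBNIP3 arrays (difference -1.17), Per1 0.56 above it and Clock 0.43 above it, while Nr1d1, Cry2, Per3 and Bhlhe40 were within 0.06. On ShCtrl array 4, Bhlhe40 lay 1.98 and Nr1d1 1.80 above the other 4 ShCtrl arrays and Per3 0.63 below them (difference -0.63), while Per1, Per2 and Clock differed by 0.03, -0.07 and -0.07. Nfil3 was high on both arrays, by 2.64 on array 10 and 2.41 on array 4. So were the early response genes Nr4a1 (7.05 and 5.19), Crem (2.49 and 1.17) and Dusp1 (1.99 and 2.17), which were named after their values were seen. Fos, another early response gene, stood apart little. It was at 8.54 on array 10, against 6.86 to 8.02 on the other ShBNIP3 arrays. On array 4 it was at 8.27, against 7.49 to 8.07 on the other ShCtrl arrays. The part of that response in the clock genes was not tested.

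**Figure D4:**
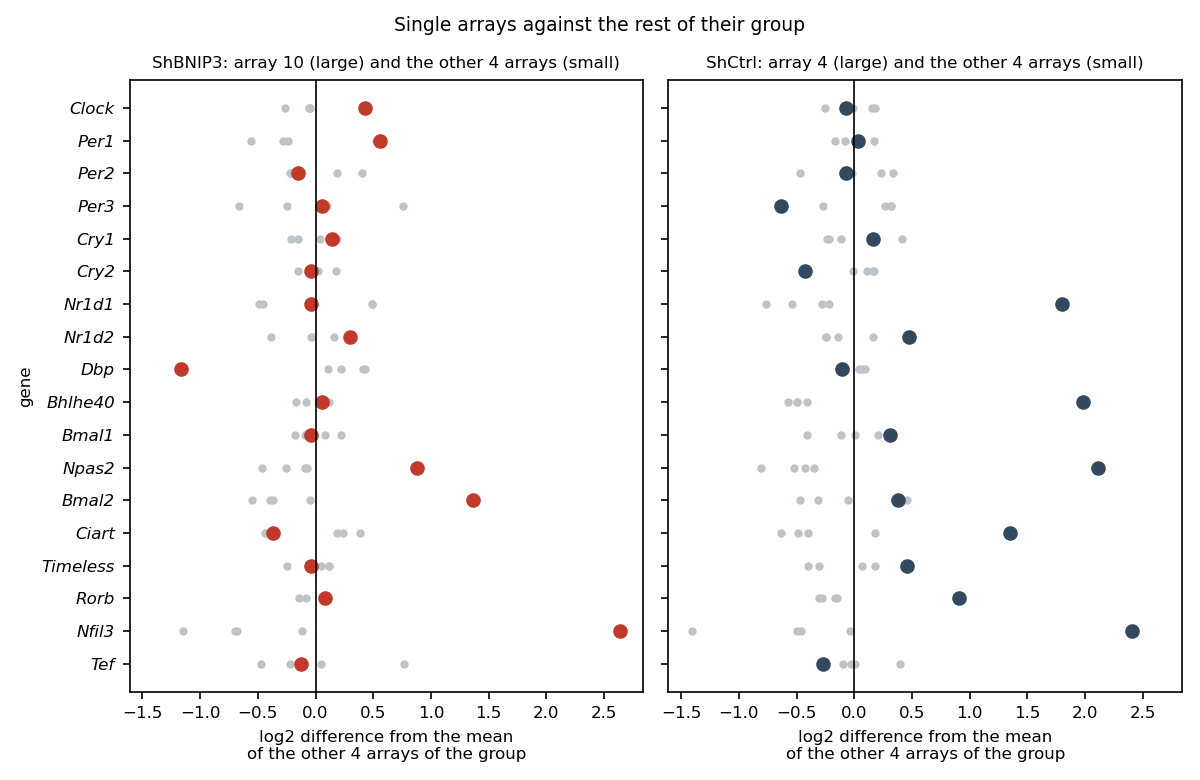
Log2 difference of single arrays from the mean of the other 4 arrays of their group (x axis) for each gene (y axis), with ShBNIP3 array 10 and ShCtrl array 4 as large points and the remaining arrays as small grey points. Array 10 is low for Dbp (-1.17) and high for Nfil3 (2.64), and array 4 is high for Nr1d1 (1.80), Bhlhe40 (1.98), Npas2 (2.11) and Nfil3 (2.41).

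Genes listed for the turnover of clock proteins changed in both directions. The list also held cofactors of transcription, Wdr5 and Ncor1 among them. Of 26 measured of 32 listed, 2 rose and 7 fell, 34.6% against 17.1% of all named genes, with a median of -0.05. Csnk1d, the casein kinase that marks PER proteins for removal, was at 11.87 to 12.13 (median 12.04) in ShBNIP3 and at 13.16 to 13.33 (median 13.21) in ShCtrl. The groups were apart, and it fell by 1.20 (SE 0.10, limma adjusted p = 1.1e-05), or 2.30-fold. Btrc, the F-box protein that recognises phosphorylated PER, rose by 0.76 (SE 0.14, limma adjusted p = 0.0033). The kinases Gsk3a and Csnk2a1 and the scaffold Rack1 fell by 0.95, 0.66 and 0.56 (limma adjusted p = 0.00016, 0.0013 and 0.0026). Wdr5 and Ncor1 were also called lower, with differences of -0.45 and -0.41 (limma adjusted p = 0.030 and 0.039). The paralog kinase Csnk1e differed by -0.13 (limma adjusted p = 0.67) and Gsk3b by -0.05 (limma adjusted p = 0.84). Without ShCtrl array 3 or 5 or ShBNIP3 array 6 or 9, 4 members of this list fell. The number of all probesets called also moved with 1 array left out, over the range given in the last section. A change particular to this list was not tested.

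Described output genes of the clock changed in both directions. Of 22 measured of 25 listed, 3 rose and 3 fell, 27.3% against 17.1% of all named genes, with a median of 0.06. Without arrays 10 and 4, where 4622 of all 23188 probesets were called, 6 of the 22 rose and 5 fell. Without ShBNIP3 array 10 or ShCtrl array 4 alone, 5 rose, and the number of all probesets called also moves when an array is left out (last section). The glycogen synthase Gys1 fell by 1.34 (SE 0.26, limma adjusted p = 0.0037), while Por, the electron donor of cytochrome P450 enzymes, rose by 1.23 (SE 0.21, limma adjusted p = 0.0019). The transferrin receptor Tfrc rose by 1.17 (limma adjusted p = 0.0011) and Leo1, a subunit of the PAF1 complex, by 0.52 (limma adjusted p = 0.017). Lonrf3, at background on all ShBNIP3 and 4 of the ShCtrl arrays, differed by -1.78 (limma adjusted p = 0.00017), and no fold is given. The deubiquitinase Usp2, held in this list and the one above, fell by 0.83 (limma adjusted p = 0.033). It was at background on 4 ShBNIP3 arrays and on ShCtrl array 1 (6.19), and at 6.80 to 6.91 on the other ShCtrl arrays, close to the background level. It passed in 3 of 10 fits that left out 1 array. The call was lost without ShCtrl array 2, 3 or 5 or ShBNIP3 array 6, 7, 8 or 9 (limma adjusted p at most 0.081).

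With all arrays, genes of the signals that switch on Per transcription were called about as often as all named genes (17.1%). Of 19 measured of 21 listed, 1 rose and 2 fell (15.8%, median 0.02). Without arrays 10 and 4, where 4622 of all 23188 probesets were called, 3 of the 19 rose and 4 fell. Fkbp5, a chaperone induced by glucocorticoids, was at background on all ShBNIP3 arrays and at least 1.19-fold lower (difference -1.04, SE 0.20, limma adjusted p = 0.0034). The glucocorticoid receptor Nr3c1 fell by 0.49 (SE 0.13, limma adjusted p = 0.024), and did not pass without ShCtrl array 1, 2 or 5 (limma adjusted p at most 0.064), where 1 member fell. Prkacb, a catalytic subunit of the cAMP-dependent kinase, rose by 0.77 (SE 0.24, limma adjusted p = 0.046). It passed in 2 of 10 fits with 1 array left out, those without ShCtrl array 2 or ShBNIP3 array 10, and had an adjusted p of up to 0.12 without ShCtrl array 1, 3, 4 or 5 or ShBNIP3 array 6, 7, 8 or 9. With ShBNIP3 array 10 left out, 2 members rose, and without ShCtrl array 1, 3 or 5 or ShBNIP3 array 6, 7, 8 or 9, 0 rose. The number of all probesets called moved as well in fits with 1 array left out, over the range given in the last section.

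The genes whose levels followed the clock genes most closely over the 10 arrays were found by the root mean square difference between profiles, each centred on its own mean. Dbp was followed most closely by Mtmr9 (root mean square difference 0.20 on the log2 scale), Dusp10 (0.23) and Tmem43 (0.25). For Per3 these were Otub2 (0.17), Pltp (0.20) and Lmo1 (0.20). The profiles nearest to Nr1d2 were those of the mitophagy receptor Bnip3l (0.12), the matrix protein Fbln1 (0.13) and the lactate dehydrogenase subunit Ldha (0.14). All 9 genes were lower in ShBNIP3, between -1.93 for Dusp10 (limma adjusted p = 0.00012) and -0.66 for Bnip3l (limma adjusted p = 0.0023). They were picked for profiles near those of called clock genes that fell, so their falls follow from the choice and are no separate result. The points they share are the 10 arrays and their difference between groups.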

How the data were processed

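RNA of 10 samples, 5 ShBNIP3 and 5 ShCtrl, was prepared with the GeneChip WT Plus kit and measured on 1 array per sample. Per the labels, the authors normalized the arrays by sst-rma and deposited a log2 value for each probeset on each array. The Transcriptome Analysis Console is named in the submitters' processing notes (version not given in the sources used here). Groups were taken from sample titles. Control probesets (1646 of 24834) were left out. Genes were named from the platform annotation, in which 15049 probesets carry 1 symbol, 0 several and 8139 none, and all named genes were found in the RefSeq table of GRCr8 by Entrez identifier. For a gene on several probesets the brightest on average was taken. None of the genes named in the text had several. Differences were fitted with limma 3.58.1 (lmFit, eBayes) in R 4.3.3, and the fit was tested on simulated data. A fold against a group at background is a bound, computed from the background level or the probeset's own value, whichever is higher on each array.

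The genes named are Bnip3, the clock genes, the measured genes of the loop, up to 6 called genes with the largest difference in each wider list, and the 3 nearest profiles of the 3 called clock genes with the largest difference. The early response genes, the cell type markers, paralogs beside a called gene, and Wdr5 and Ncor1 were added after their values were seen. The members and the lists were chosen with earlier results of these data known. Alternatives were other scalings, variance models, filters on dim probesets, leaving out each array, leaving out arrays 4 and 10, and a 2-fold threshold. The number of arrays limits the precision.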

Additional observations from a re-analysis of the deposited data

Results flagged for a closer look

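A sample was singled out where its gap to the nearest of the 5 samples of its group exceeded 0.71 of the group's range. This happened in 18 of the 84 groups looked at (42 genes), and 16 of the 18 involve ShBNIP3 array 10 or ShCtrl array 4. Chance gives about 1 in 20 for independent groups. The groups here share the same arrays, and the genes with the nearest profiles were picked by these values. The flags are thus not independent, and their number cannot be judged by that rate. Among the clock genes, Dbp was low on ShBNIP3 array 10 (12.68, nearest 13.71), and Nr1d1 (14.70, nearest 13.09) and Bhlhe40 (15.67, nearest 13.76) were high on ShCtrl array 4. In the rest of the loop, Bmal2 (8.82) and Nfil3 (8.53) were high on array 10, and Npas2 (11.15) and Rorb (5.31, at background) on array 4.

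In the wider lists, Usp2 was high on ShBNIP3 array 10 (6.84), while Btrc (10.66) and Nr3c1 (11.58) were low there. Gys1 was high on ShCtrl array 4 (15.77). On ShCtrl array 1, Gsk3a (12.87) and Usp2 (6.19) were low. Of the genes with the nearest profiles, Dusp10 was low (7.85) and Ldha high (16.73) on array 10, and Tmem43 (15.25) and Lmo1 (6.42) were low and Bnip3l (15.67) high on array 4.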

How the results depend on the processing

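The called falls of Dbp, Per3, Nr1d2 and Per2 and of Bnip3 passed with the same sign under every scaling, variance model, filter and left-out array run, with differences of -1.74 to -1.42, -1.19 to -0.91, -0.87 to -0.72, -0.72 to -0.55 and -3.53 to -2.87. Clock passed under the scalings, variance models and filters run, and with 1 array left out it ranged from -0.55 to -0.42 and passed in 3 of 10 fits. The count of clock genes that fell was 4 to 5 with 1 array left out and 2 with a 2-fold threshold, which Nr1d2, Per2 and Clock did not pass, and 0 rose in every setting. The fall of Per3 was under 2-fold without ShCtrl array 1, 2 or 5 or ShBNIP3 array 8 or 9 (differences -0.99 to -0.91). The number of all probesets called was 2746 to 3960 with 1 array left out and 969 with a 2-fold threshold, against 3590. Bhlhe40 changed sign with array weights (0.091) and without arrays 10 and 4 (0.22), and with 1 array left out it ranged from -0.28 to 0.23. Npas2 ranged from -0.47 to 0.13 with 1 array left out and was positive without ShCtrl array 4 (0.13). The cause of these changes beyond the value of array 4 was not tested. Centring, quantile normalization and the other settings moved the median of all probesets by less than 0.1. The rule for genes with several probesets had no named gene to apply to. No paired analysis was possible because the title numbers of the groups share none. At the background level the arrays limit what can be measured. Among the clock genes and the rest of the loop it holds Cry1 and Rorb, and in ShBNIP3 also Tef, Ciart and most Per3 and Nfil3 values.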
